A study of Sus scrofa with 24 samples.

Results

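Gene expression in the sow utero-tubal junction (UTJ) after infusion of sperm-free seminal plasma (SP) was compared with that after infusion of extender, over all genes that the array annotation names. The UTJ joins the uterine horn to the oviduct and holds the functional sperm reservoir of the pig. Arrays labelled SP-infused numbered 8 and arrays labelled control 8, of 24 in the series, the other 8 being from mated sows. All were Affymetrix arrays of total RNA from Swedish Landrace sows in oestrus, weaned before use, with tissue taken by surgery within 24 h of treatment. Control sows received 50 ml of Beltsville Thawing Solution (BTS), an extender used to dilute and keep boar semen, and SP-infused sows 50 ml of SP, which was harvested from whole boar ejaculates by centrifugation. In the study's general design the control females are untreated, whereas the labels and the pig methods give them BTS, and the labels were followed. Each group held 4 sows, from which both UTJs were taken, so pairs of arrays came from 1 animal. The labels do not tell which, and since arrays were treated as separate samples, the p-values are too small and the intervals too narrow. Of 27558 probe sets 13327 carried 1 gene symbol, 357 several and 13874 none. Where a gene had more than 1 such probe set, as 902 genes did, the one with the highest mean over the 24 arrays stood for it, which left 12365 genes.

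Seminal plasma is the fluid of the epididymis and the accessory sex glands that carries sperm at ejaculation. It bears proteins, prostaglandins and cytokines, and in several mammals its contact with the female tract is followed by leukocyte entry, cytokine release and changes in secretion. The UTJ wall holds a folded mucosa of ciliated and secretory cells over stroma, vessels and smooth muscle, and its secretory cells make glycoproteins such as oviductin that pass through the endoplasmic reticulum (ER) and are glycosylated there.

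Levels of genes of smooth muscle, secretory cells and hormone response were read, as log2 intensities, which are used throughout. Whether they set the UTJ apart from nearby tissue was not tested. The smooth muscle gene ACTG2 lay between 11.64 and 12.65 over all 16 arrays, the secretory inhibitor SLPI between 8.46 and 12.67, and the progesterone receptor PGR between 8.58 and 11.59, whereas OVGP1, which encodes oviductin, ranged from 4.49 to 11.94. Control array 1 stood apart, with a standard deviation over probe sets of 1.91 against 2.06 to 2.14 on the SP-infused arrays and a median correlation with the other controls of 0.947. When each gene was centred on its mean over 24 arrays, the closest array to an SP-infused array carried the same label in 3 of 8 cases, and the closest to a control array in 5 of 8. The highest of these correlations, 0.773, was between control array 7 and SP-infused array 1. Over the 500 most variable genes control arrays 1 and 3 (0.787), 2 and 4 (0.662) and 6 and 8 (0.785) were each other's closest, but so were control array 7 and SP-infused array 1 (0.951), the highest of all, and control array 5 and SP-infused array 3 (0.703). No sample could be checked against its label by a gene that the treatment must alter, so every direction below rests on the labels.

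No gene passed the test at an adjusted p under 0.05 (limma, Benjamini-Hochberg over all probe sets), and the lowest adjusted p was 0.891. Without adjustment 561 genes, or 4.54%, had a p under 0.05, with 187 higher (1.51%) and 374 lower (3.02%) in SP-infused UTJ. Chance alone would give 618 on average with valid p-values, but those here are too small, as stated above. Every gene named below had an adjusted p of 0.891 or more, so "higher" and "lower" give the sign of a measured difference with its 95% interval from the same fit, not a call. Such an interval leaves out 0 where the unadjusted p was under 0.05. Differences were small, with a median size of 0.09 on the log2 scale, and 71 genes were above 0.5 and 79 below -0.5. The 95% interval of the difference lay wholly within 0.5 either way for 9644 genes (78%) and within 1 for 11977 (96.9%). Its median half-width was 0.25. Because arrays of 1 sow were treated as separate samples, these intervals are too narrow and both shares too high.

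The balance of directions went with the level of the gene. Among 2387 genes with a mean of 8 or more, 58 were higher and 33 lower at an unadjusted p under 0.05, while among 3397 genes with a mean below 5, 15 were higher and 186 lower. Medians of the difference were 0.03 in the former and -0.08 in the latter. Over all genes 57.7% were lower, 42.3% were higher, and the median difference was -0.03. This split moved with scaling: of the genes with an unadjusted p under 0.05, 66.7% were lower on the deposited values, 44.8% after the array medians were made equal, 47.1% after cyclic loess and 49.7% after quantile normalization. The spread also differed by group, the standard deviation being larger in control than in SP-infused arrays for 7776 genes (62.9%), but for 48.6% without control array 1.

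**Figure D1:**
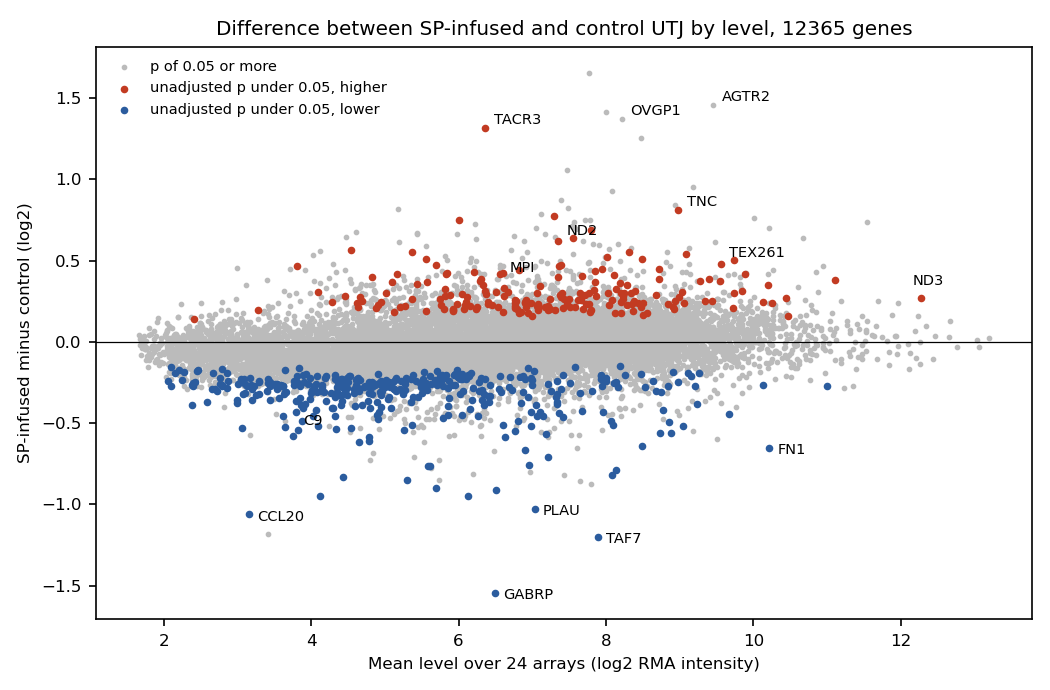
SP-infused minus control difference (log2) of each of 12365 genes against its mean level over 24 arrays (log2 RMA intensity). Red points (187) and blue points (374) have an unadjusted p under 0.05, none passes adjustment, and most blue points lie at low levels.

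Genes of protein glycosylation and ER protein processing were the most one-sided of the larger lists. This list, like the others, was chosen with earlier results of these data known, so its counts are a description. Of 40 measured, 36 were higher in SP-infused UTJ against 42.3% of all genes, with a median difference of 0.14 against -0.03, and 6 had an unadjusted p under 0.05, all higher. Genes of their level, a mean of 8.08, also leaned higher, with a median of 0.03 for all genes at 8 or more. Their list mean was lowest on control array 1 (-0.36), where that of secretory epithelium markers was -0.66, and highest on SP-infused array 6 (0.24), where the latter was 0.48. On SP-infused array 8 the values were 0.13 and -0.34. The part of epithelial content in this difference was not tested. MPI, the isomerase that supplies mannose phosphate for glycans, lay between 6.56 and 7.46 in control (median 7.14) and between 7.30 and 7.93 in SP-infused arrays (median 7.52). All 8 SP-infused arrays were above the control median, and the difference was 0.47 (95% interval 0.22 to 0.71), a fold of 1.38. DPAGT1, which starts the dolichol-linked precursor of N-glycans, ranged from 7.70 to 8.30 around 7.97 in control and from 8.04 to 8.79 around 8.24 in SP-infused UTJ. It too had all 8 SP-infused arrays above the control median, with a difference of 0.36 (0.14 to 0.58). SEC61A1, the pore through which nascent chains enter the ER, had control values from 8.71 to 9.09 (median 8.85) and SP-infused values from 8.87 to 9.39 (median 9.29), so that the groups overlapped at SP-infused arrays 1, 2 and 7. Its difference was 0.31 (0.10 to 0.51).

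Both named subunits of the oligosaccharyltransferase, which moves the finished glycan onto protein, were higher with more overlap. DDOST was higher by 0.39 (0.04 to 0.74), with control values of 8.10 to 9.78 around 9.39 and SP-infused values of 9.32 to 9.89 around 9.62. DAD1 was higher by 0.24 (0.02 to 0.46), with 5 of 8 SP-infused arrays above the control median of 10.15. Control array 1 was the lowest for DDOST by a wide gap, and without it the DDOST difference was 0.23 with an interval that contained 0. The list itself kept its lean without that array, at 37 of 40 higher and a median of 0.11, and without control arrays 1 and 3, at 33 higher and 0.08. Leaving out single arrays gave list medians from 0.11 to 0.18.

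**Figure D2:**
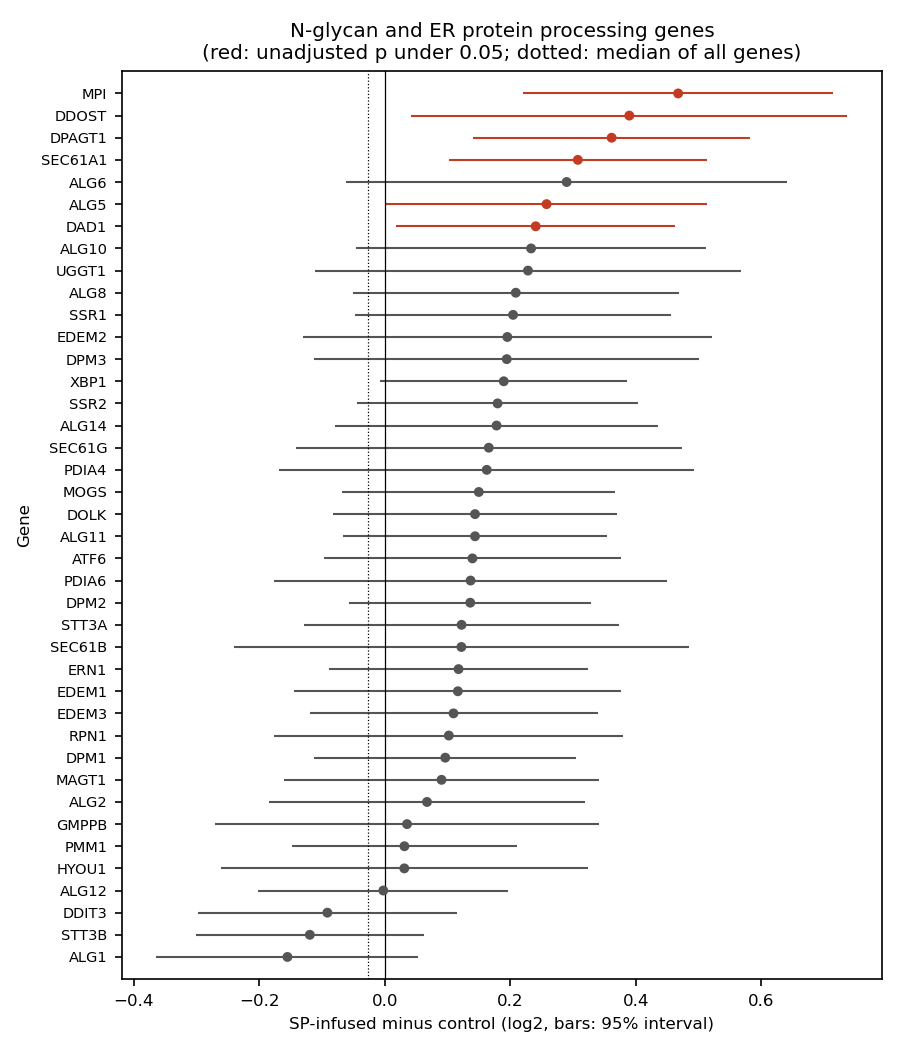
SP-infused minus control difference (log2) of the 40 measured genes of N-glycan and ER protein processing, with 95% intervals; red genes (6) have an unadjusted p under 0.05. Points of 36 genes lie right of 0, and the dotted line marks the median of all genes, -0.03.

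POMT2, DHDDS, TEX261, STAM and POM121C lie outside that list and were among the 15 higher genes with the lowest p, and FKBP11 was among the 10 largest at an unadjusted p under 0.05. They were chosen by their values and form no fixed list. POMT2, which starts O-mannose glycans in the ER, lay between 5.90 and 6.48 in control (median 6.18) and between 6.37 and 6.72 in SP-infused arrays (median 6.47), higher by 0.29 (0.13 to 0.46). DHDDS, a subunit of the enzyme that builds the dolichol carrier, was higher by 0.23 (0.07 to 0.38), its control values ending at 6.46 and its SP-infused median standing at 6.56. FKBP11, a prolyl isomerase of the ER in secretory cells, was higher by 0.55 (0.03 to 1.08), and by 0.38, with an interval containing 0, without control array 1. TEX261, whose yeast relative helps cargo leave the ER, was the one gene whose groups did not overlap, or 0.00809% of genes. Its control arrays lay between 8.02 and 9.65 (median 9.36) and its SP-infused arrays between 9.65 and 9.94 (median 9.70), a gap that vanishes at 2 decimals. The difference was 0.48 (0.16 to 0.81), and 0.31 without control array 1, its interval leaving out 0 in both fits. STAM, part of the complex that sorts receptors into endosomes for breakdown, was higher by 0.26 (0.09 to 0.43), with all SP-infused arrays at 7.56 or above and a control median of 7.49. POM121C, a protein of the nuclear pore ring, was higher by 0.31 (0.12 to 0.51), with all 8 SP-infused arrays above the control median of 6.13.

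Transcripts of the mitochondrial genome and of nuclear respiratory genes were also mostly higher. All 8 measured mitochondrially encoded subunits were higher, with a median of 0.11 and 2 at an unadjusted p under 0.05, although 5 of 8 were higher after cyclic loess. ND3, a subunit of complex I, was at 11.96 to 12.29 in control (median 12.05) and 12.13 to 12.48 in SP-infused UTJ (median 12.36). Only SP-infused array 4 lay below 12.29, and the difference was 0.27 (0.12 to 0.42). ND2, of the same complex, was higher by 0.62 (0.21 to 1.03), and its highest values of 8.58 and 8.50 were on SP-infused arrays 6 and 8, the other SP-infused arrays reaching 7.57. Of 50 nuclear-encoded respiratory chain genes 41 were higher, with a median of 0.08. A single one was higher at an unadjusted p under 0.05, NDUFB11 at 0.26 (0.02 to 0.50), and a single one lower, NDUFA12 at -0.22 (-0.43 to -0.01).

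Proteasome genes, which encode the machine that degrades tagged protein, were higher in 25 of 32 cases with a median of 0.09. Their list mean was 0.33 and 0.34 on SP-infused arrays 6 and 8, -0.08 to 0.08 on the other SP-infused arrays and -0.34 on control array 1, and its group medians were both -0.02. Leaving out single arrays gave list medians from 0.04 to 0.12. PSMB6, a subunit of its core, ran from 7.93 to 8.54 around 8.19 in control and from 8.23 to 8.87 around 8.49 in SP-infused arrays, higher by 0.30 (0.05 to 0.55). The regulatory ATPase PSMC2 was higher by 0.28 (0.00 to 0.55) and the assembly factor PSMD5 by 0.25 (0.01 to 0.49), and for both control array 1 held the lowest value, 8.01 and 7.53. Both intervals contained 0 without that array. Of 33 antioxidant genes 24 were higher, with a median of 0.06 and 3 at an unadjusted p under 0.05. KEAP1, which holds the antioxidant transcription factor NFE2L2 in check, was at 7.45 to 7.95 in control and 7.81 to 8.00 in SP-infused UTJ, and all 8 SP-infused arrays were above the control median of 7.69. It was higher by 0.23 (0.07 to 0.40). CAT, the catalase that removes hydrogen peroxide, was higher by 0.42 (0.07 to 0.77), and by 0.27 without control array 1, where it read 8.57 against 9.37 to 9.86 on the other controls, and its interval then contained 0. TXN, the thioredoxin, was higher by 0.37 (0.03 to 0.71) but had 4 of 8 SP-infused arrays on either side of the control median. Its values on SP-infused arrays 5, 6 and 8 were 10.10, 10.23 and 10.23, on the other SP-infused arrays at most 9.54 and on control arrays at most 9.61.

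Cell division genes showed how much single arrays weighed. Of 36 measured, 32 were higher, with a median of 0.19, yet none had an unadjusted p under 0.05. The mean of the list, each gene centred on its 24-array mean, was 1.09 and 0.88 on SP-infused arrays 6 and 8, 0.66 and 0.49 on control arrays 4 and 2, and -0.90 on control array 1. On the other 6 SP-infused arrays it was between -0.38 and 0.11. Without control array 1 the median was 0.06 with 26 higher, and without control arrays 1 and 3 it was 0.00 with 18 of 36 higher. CCNE1, the cyclin of entry into DNA synthesis, had the lowest p of the list and was at 0.32 (-0.09 to 0.72), with 6.73 and 6.29 on SP-infused arrays 6 and 8 against 4.70 to 5.79 in control. TUBB, a β-tubulin, was higher by 0.38 (0.13 to 0.63). Its control values were 10.68 to 11.27 around 10.90, its SP-infused values 11.10 to 11.67 around 11.25, and arrays 6 and 8 were again the highest at 11.63 and 11.67. A second TUBB probe set with a low mean of 3.94 gave -0.21.

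**Figure D3:**
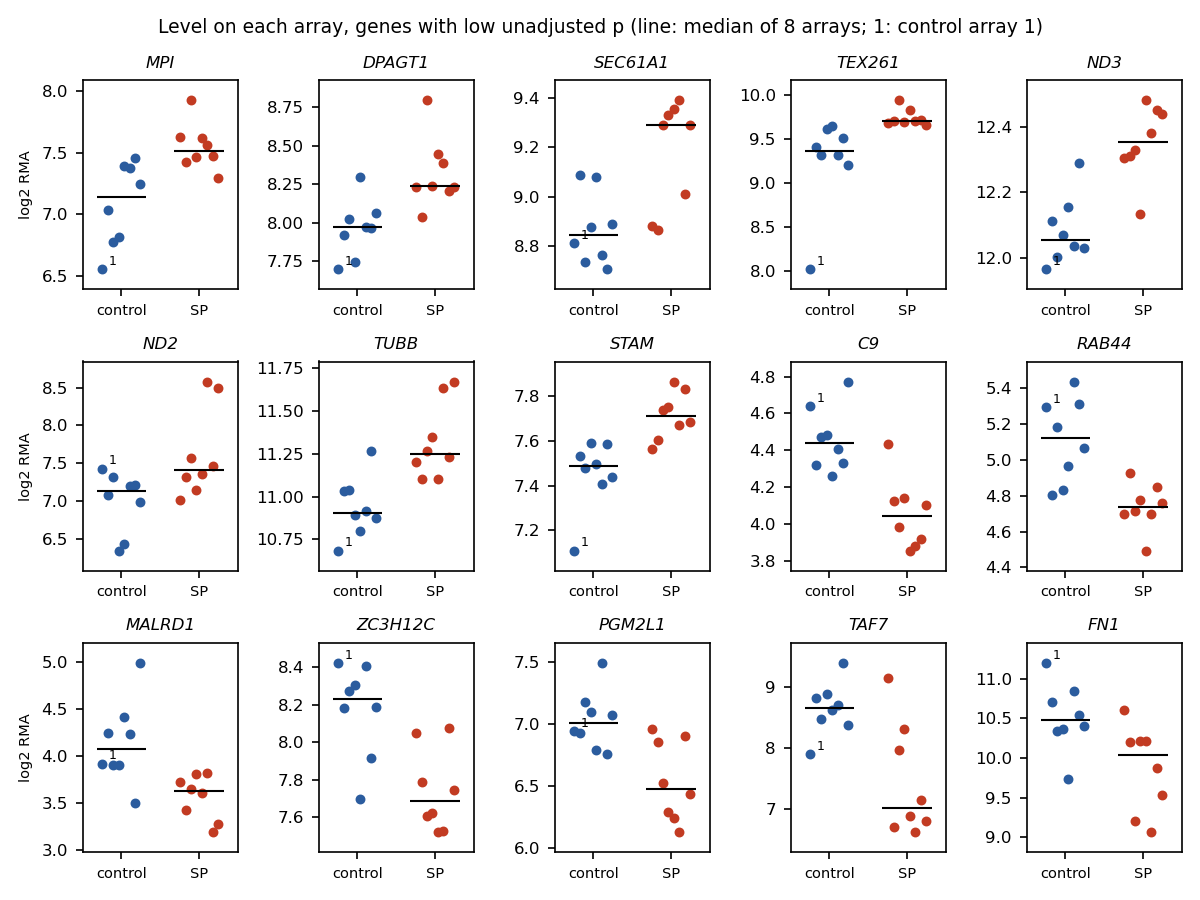
Level (log2 RMA) of 15 genes with low unadjusted p on each control (blue) and SP-infused (red) array, with the median of 8 as a line and control array 1 numbered. For MPI and ND3 all 8 SP-infused points lie above the control median, for C9 and RAB44 all 8 lie below it, and for TEX261 the groups meet at 9.65.

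Among genes lower in SP-infused UTJ, those with the lowest p were mostly of low level. C9, which completes the membrane attack complex of complement, lay between 4.26 and 4.77 in control (median 4.44) and between 3.85 and 4.43 in SP-infused arrays (median 4.04). It had the lowest p of all genes, and its difference was -0.41 (-0.60 to -0.21). RAB44, a large Rab GTPase, was at 4.80 to 5.44 in control and 4.49 to 4.93 in SP-infused UTJ, with a difference of -0.37 (-0.57 to -0.17). For both genes every SP-infused array lay below the control median. MALRD1 differed by -0.58 (-0.89 to -0.26), with 7 of 8 control arrays above the highest SP-infused value of 3.82. The zinc carrier SLC39A12 differed by -0.31 (-0.50 to -0.12) at levels of 2.64 to 3.63, near the bottom of the scale.

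At middle levels, PGM2L1, which makes a glucose bisphosphate, was at 6.76 to 7.49 in control around 7.01 and at 6.13 to 6.96 in SP-infused arrays around 6.48. Its difference was -0.49 (-0.77 to -0.21). ZC3H12C, an RNA-degrading protein of the regnase family, had a control median of 8.23 and an SP-infused median of 7.68 and differed by -0.43 (-0.69 to -0.17). No SP-infused array of either gene reached its control median. SCARA5, a ferritin receptor of stromal cells, differed by -0.71 (-1.15 to -0.26), with control arrays 1 and 3 highest at 8.34 and 8.55. PRR16 differed by -0.76 (-1.25 to -0.27), with medians of 6.09 and 5.44. The secreted signals WNT11 and UCN3, a urocortin, lay lower, in or near the range where genes in general were lower. WNT11 had medians of 4.43 in control and 4.06 in SP-infused arrays and differed by -0.36 (-0.60 to -0.13). UCN3 had medians of 5.02 and 4.69 and differed by -0.41 (-0.66 to -0.16).

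TAF7, a subunit of the general transcription factor TFIID, fell into high and low arrays. Control values were 7.90 to 9.40 (median 8.67). SP-infused arrays 2, 5, 6, 7 and 8 lay between 6.62 and 7.15 and arrays 1, 3 and 4 at 9.15, 7.97 and 8.32, inside the control range. The difference was -1.20 (-1.92 to -0.48), the largest negative one after GABRP among genes with an unadjusted p under 0.05. TMSB4X, an actin monomer-binding peptide, was high in both groups, at 11.03 to 11.44 in control and 10.66 to 11.13 in SP-infused UTJ, and differed by -0.27 (-0.49 to -0.04). Its second probe set gave -0.40.

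Several other large negative differences were smaller without a few control arrays, whereas TAF7 was at -1.35 without control arrays 1 and 3 and -1.24 without arrays 6 and 8. PLAU, the urokinase plasminogen activator, read 9.14, 8.89, 8.38 and 8.46 on control arrays 1, 3, 6 and 8, 6.09 to 6.92 on the other control arrays and 6.15 to 6.97 on all SP-infused arrays. The difference of -1.03 (-1.78 to -0.28) was -0.57 without arrays 1 and 3 and -0.77 without arrays 6 and 8, and its interval contained 0 in both cases. GABRP, an epithelial GABA receptor subunit, was highest on the same 4 arrays, at 8.08 to 9.28, and had the largest difference of the genes with an unadjusted p under 0.05, -1.55 (-2.69 to -0.40). It was -1.20 without arrays 1 and 3 and -1.19 without arrays 6 and 8, again with intervals containing 0. Control array 4, at 7.59, also lay above the highest SP-infused GABRP value of 6.96, and the other 3 control arrays below it.

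Control arrays 1 and 3 shared a further set. KCNIP1, a potassium channel partner, read 6.56 and 7.44 on them and 3.67 to 4.20 on the other control arrays, against 3.15 to 4.10 in SP-infused UTJ. Its difference of -0.95 (-1.86 to -0.03) was -0.15 without them. PLCL1, an inactive phospholipase C relative, had a difference of -0.95 (-1.83 to -0.06) that was -0.39 without them, and HPGD, the enzyme that inactivates prostaglandins, one of -0.90 (-1.78 to -0.02) that was -0.36. All 3 intervals then contained 0. INMT, a methyltransferase of stromal cells, read 7.58 and 7.00 on them and at most 5.49 on other arrays, and differed by -0.85 (-1.40 to -0.29), or by -0.37 without them, where its interval still left out 0. Low on the same arrays were the angiotensin receptor AGTR2, at 4.81 and 3.62 against 8.02 to 11.43 on the other 14 arrays, and PGR, at 8.58 and 10.13. AGTR2 differed by 1.46 (-0.45 to 3.37), and by 0.04 without arrays 1 and 3. Whether these arrays came from 1 sow was not tested.

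Control arrays 6 and 8 shared another set, which included genes that respond within minutes to hours to stimulation. They were also high for fibronectin, integrins and plasminogen activation (list means 0.57 and 0.57), metallopeptidases (0.43 and 0.46) and cytokine receptors (0.30 and 0.35). CCL20, which draws in dendritic cells and lymphocytes, read 5.76 and 6.49 on them and 2.36 to 3.24 on the 14 other arrays. The orphan nuclear receptor NR4A3 read 6.86 and 6.88 against 3.82 to 4.86, and the interferon-induced IFIT2 8.37 and 8.67 against 5.75 to 7.01. Differences of -1.06 (-1.97 to -0.15), -0.83 (-1.57 to -0.09) and -0.91 (-1.59 to -0.24) became -0.26, -0.19 and -0.39 without these arrays, and all 3 intervals then contained 0. Early response transcription factors as a list were lower in 13 of 14 cases, with a median of -0.28 and 3 at an unadjusted p under 0.05, against 57.7% of all genes lower. NR4A2 differed by -0.35 (-0.65 to -0.06) and EGR1, which turns on growth factor targets, by -0.39 (-0.73 to -0.04). The list of MAP kinase phosphatases, which switch off the same signalling, was drawn up to include Sprouty and SPRED inhibitors as well. It was lower in 9 of 11 measured cases with a median of -0.22. Among its members were the phosphatases DUSP2 at -0.46 (-0.80 to -0.11) and DUSP10 at -0.41 (-0.78 to -0.04).

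The list means on control arrays 6 and 8 were 0.94 and 0.73 for the transcription factors and 0.64 and 0.65 for the phosphatase list. No SP-infused array exceeded 0.18 for either list. Without control arrays 6 and 8 the list medians were -0.11, with 11 of 14 lower, and -0.04, with 7 of 11 lower. Their part in these differences was not tested further.

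**Figure D4:**
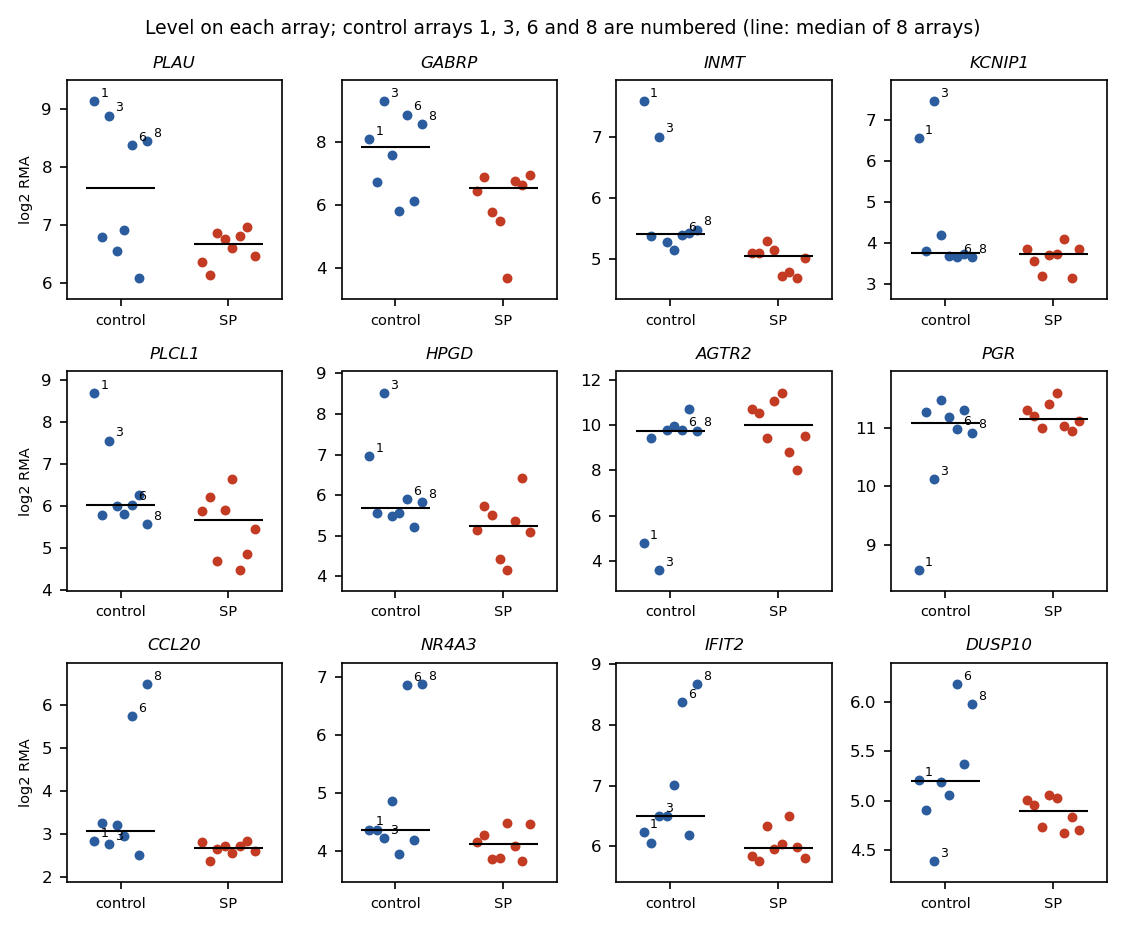
Level (log2 RMA) of 12 genes on each control (blue) and SP-infused (red) array, with the median of 8 as a line and control arrays 1, 3, 6 and 8 numbered. PLAU is high on all 4 numbered arrays, KCNIP1 on arrays 1 and 3 (6.56 and 7.44) and CCL20 on arrays 6 and 8 (5.76 and 6.49).

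The direction of matrix genes depended on which control arrays were used. Of 29 collagens and matrix proteins 13 were lower, with a median of 0.01, and 3 were lower at an unadjusted p under 0.05. Without control arrays 1 and 3, 24 of 29 were lower (-0.12), and without arrays 6 and 8, 11 of 29 (0.07). The laminin chains LAMB1, at -0.27 (-0.46 to -0.07), and LAMA2, at -0.56 (-1.01 to -0.11), belong to basement membranes, as does COL15A1 at -0.44 (-0.82 to -0.06). For COL15A1 6 of 8 control arrays lay above the highest SP-infused value of 9.78, while LAMA2 was highest on control array 3 at 10.31, was at -0.39 without it with an interval that left out 0, and was at -0.34 with an interval containing 0 without arrays 1 and 3. FN1, fibronectin, was at 9.74 to 11.19 in control (median 10.48) and 9.06 to 10.60 in SP-infused arrays (median 10.04). It differed by -0.65 (-1.10 to -0.21), and by -0.57 and -0.62 without control arrays 1 and 3 or 6 and 8. PLG, plasminogen, the substrate of urokinase, differed by -0.26 (-0.46 to -0.07). Its second probe set, with a low mean of 3.45, gave -0.19. TNC, the glycoprotein tenascin of remodelling tissue, went the other way at 0.81 (0.03 to 1.59), with SP-infused values spread from 7.66 to 10.57. The list of fibronectin, integrins and plasminogen activation had 13 of 20 lower and a median of -0.13, which was 19 of 20 and -0.21 without control arrays 1 and 3 but 8 of 20 and 0.07 without control arrays 6 and 8. Metallopeptidases and their inhibitors had 17 of 28 lower (-0.04) and none at an unadjusted p under 0.05, with 24 of 28 lower (-0.14) without arrays 1 and 3 and 11 of 28 (0.05) without arrays 6 and 8.

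Most immune lists had a median below 0, as all genes did, with 57.7% of them lower and medians of -0.03 overall and -0.08 for genes with a mean below 5. T and NK cell markers were lower in 24 of 30 cases with a median of -0.12, macrophage and dendritic cell markers in 20 of 23 (-0.12) and neutrophil markers in 10 of 14 (-0.12). Without control array 1 the medians were -0.05, -0.07 and -0.05, and the macrophage list was at 0.00 without control arrays 6 and 8. Interferon response genes were lower in 18 of 27 cases with a median of -0.06, which was -0.20 with 22 of 27 lower without arrays 1 and 3 and 0.08 with 11 of 27 lower without arrays 6 and 8. Complement genes were lower in 16 of 23 (-0.07), Toll-like receptors and endotoxin sensors in 14 of 20 (-0.04), cytokines and growth factors in 20 of 30 (-0.12) and chemokines and their receptors in 20 of 33 (-0.04), or 60.6% and thus near the share of all genes, with 15 of 33 lower (0.03) without control array 1. The cytokine list was at 0.00 and the complement list at 0.01 without arrays 6 and 8. T and NK cell and neutrophil markers were at mean levels of 4.95 and 4.85, in the range where genes in general were lower. Antigen presentation genes were higher in 14 of 26 (0.01). No member of the cytokine or antigen presentation lists had an unadjusted p under 0.05.

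S100A9, a calprotectin subunit of neutrophils, was at 2.99 to 3.97 in control around 3.45 and at 2.92 to 3.32 in SP-infused arrays around 3.05, with a difference of -0.33 (-0.58 to -0.07). TREM1, an amplifying receptor of myeloid cells, differed by -0.46 (-0.83 to -0.09), with SP-infused arrays 6, 7 and 8 lowest at 3.54 to 3.76. Both lay at the low end of the scale. The lymphocyte cytokine receptor IL7R differed by -0.38 (-0.71 to -0.05), the NK cell receptor NCR3 by -0.25 (-0.48 to -0.01) and the lipopeptide sensor TLR1 by -0.32 (-0.60 to -0.04). Another TLR1 probe set, with a mean of 5.02, gave -0.05. Among signals that seminal fluid is known for in other species, IL33 was at 0.44 (-0.09 to 0.97), HBEGF at -0.34 (-0.75 to 0.07), LIF at -0.26 (-0.58 to 0.07) and TGFB1 at -0.18 (-0.41 to 0.06). All 4 intervals contain 0, and without control arrays 6 and 8 HBEGF was at -0.02, LIF at -0.06 and TGFB1 at -0.03.

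CCL21, which guides lymphocytes and dendritic cells into lymphatic vessels, was higher by 0.50 (0.01 to 1.00). Its control values were 8.90 to 10.24 (median 9.25), and 7 of 8 SP-infused arrays lay above that median, array 7 being far below the others at 8.58. SELP, the P-selectin that slows leukocytes on vessel walls, was higher by 0.44 (0.05 to 0.84), while the adhesion molecule VCAM1 was at -0.46 (-0.90 to -0.03) with control arrays 6 and 8 highest at 8.56 and 8.38. ACKR1, the chemokine carrier of venules, was at 0.48 (-0.04 to 1.00). Markers of endothelium and lymphatics were higher in 14 of 21 cases, with a median of 0.14. At an unadjusted p under 0.05, however, 1 of them was higher and 2 were lower.

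Some receptors that set vessel tone and contraction were higher. The lists of contraction receptors and of adrenomedullin, endothelin and nitric oxide genes had no lean. TACR3, the neurokinin B receptor, ran from 4.39 to 7.70 in control (median 5.60) and from 5.40 to 8.53 in SP-infused UTJ (median 6.75). The difference of 1.32 (0.33 to 2.30) was the largest positive one among genes with an unadjusted p under 0.05, and was 0.93 without control arrays 1 and 3, with an interval containing 0. CALCRL, the receptor part for adrenomedullin and CGRP, lay between 6.84 and 8.38 in control and 7.76 and 8.81 in SP-infused arrays, all 8 of which were above the control median of 7.62. It was higher by 0.52 (0.12 to 0.93), and by 0.34 with an interval containing 0 without control arrays 1 and 3. S1PR3, a receptor for sphingosine phosphate outside both lists, was higher by 0.69 (0.07 to 1.31). NPR3, the clearance receptor for natriuretic peptides, was higher by 0.64 (0.00 to 1.27). For S1PR3 and NPR3 all 8 SP-infused arrays exceeded the control median, of 7.48 and 7.33. Without control arrays 1 and 3 both differences were smaller, at 0.36 and 0.35 with intervals containing 0. The adrenergic receptor ADRA1A went the other way at -0.54 (-0.99 to -0.09). Over the list of contraction receptors 8 of 17 were higher, and over adrenomedullin, endothelin and nitric oxide genes 11 of 22. At an unadjusted p under 0.05 the former had 1 higher and 1 lower, and the latter 2 higher and 2 lower. Of 15 prostaglandin genes 8 were higher. The prostaglandin transporter SLCO2A1 was at 0.48, with an interval that just contained 0 and 7 of 8 SP-infused arrays above the control median of 7.23.

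Cell type markers described how the dissected pieces differed. In bulk tissue fewer cells of a type and less RNA per cell cannot be told apart. All 16 smooth muscle genes were lower in SP-infused arrays, with a median of -0.17 and none at an unadjusted p under 0.05. The list mean was -0.80, -1.01 and -0.96 on SP-infused arrays 3, 6 and 7, -0.38 on array 8 and 0.35 to 0.59 on arrays 1, 2, 4 and 5, while control arrays ran from -0.51 to 0.56. PDLIM3, a muscle Z-line protein, had the lowest p of the list and was at -0.55 (-1.33 to 0.24), and ACTG2 was at -0.13 (-0.46 to 0.19). Leaving out any 1 array gave list medians from -0.28 to -0.07.

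Secretory epithelium markers were higher in 16 of 21 cases with a median of 0.17, and their list mean spanned -1.18 to 0.98 over SP-infused and -1.27 to 0.92 over control arrays. OVGP1 was at 4.49 to 11.88 in control (median 6.30) and 5.36 to 11.94 in SP-infused UTJ (median 8.76), a difference of 1.37 whose interval of -0.75 to 3.50 contains 0. SLPI was at 0.74 (-0.16 to 1.63), and at 0.09 without control arrays 1 and 3. Ciliated cell markers were lower in 13 of 21 (-0.03) and stromal fibroblast markers higher in 9 of 15 (0.07). The standard deviation of the list mean was 0.72 in SP-infused and 0.65 in control arrays for the secretory markers, and 0.70 and 0.39 for smooth muscle. The part of these contents in the other differences was not tested. WT1, a transcription factor of mesothelium and stroma, was at -0.42 (-0.77 to -0.08), and its second probe set at -0.40. Adipocyte markers were lower in 12 of 16 (-0.09), the highest list mean being 0.64 on control array 1, and were at 0.04 without control arrays 1 and 3.

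**Figure D5:**
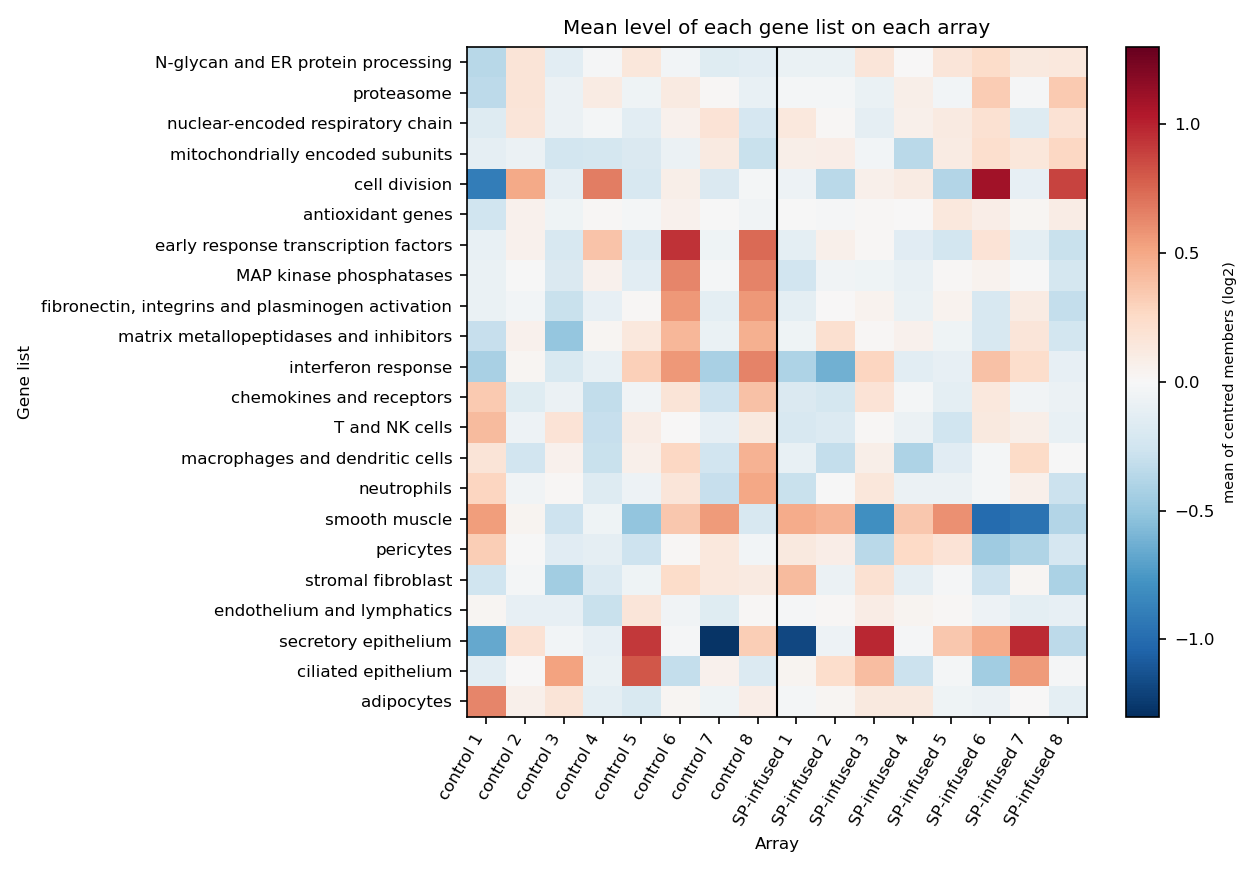
Mean log2 level of 22 gene lists on each of 8 control and 8 SP-infused arrays, each gene centred on its mean over 24 arrays (red high, blue low). Control arrays 6 and 8 are high for early response genes (0.94 and 0.73), SP-infused arrays 6 and 8 for cell division (1.09 and 0.88), and smooth muscle and secretory epithelium vary within both groups.

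Other functions that the sperm reservoir is known for differed little. Proton, bicarbonate and lactate transport genes were higher in 18 of 34 cases with a median of 0.04. One of them had an unadjusted p under 0.05, the bicarbonate cotransporter SLC4A7, at 8.66 to 9.80 in control (median 9.03) and 8.24 to 8.99 in SP-infused arrays (median 8.62), a difference of -0.49 (-0.89 to -0.10). Without control arrays 1 and 3 it was -0.32, and its interval contained 0. P-type ATPases, which pump ions and lipids, were lower in 17 of 26 (-0.04), and amino acid carriers higher in 13 of 24 (0.02), with SLC7A10 at -0.28 (-0.51 to -0.04). Annexins and candidate sperm-binding genes were higher in 19 of 28 (0.04). ST3GAL6, which adds sialic acid to glycans, was at -0.52 (-0.92 to -0.11), set in part by 8.35 on control array 1. Aquaporins and epithelial channels were lower in 19 of 26 (-0.09) with none at an unadjusted p under 0.05.

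Steroid receptors and hormone-responsive genes were higher in 14 of 24 (0.02), and none had an unadjusted p under 0.05. HSD11B1, which regenerates active cortisol, was at 0.61 (-0.09 to 1.31), with all 8 SP-infused arrays above the control median of 9.37. HOX, WNT and T-box genes were higher in 20 of 41 (0.00), with single differences from -1.18 to 0.43. At an unadjusted p under 0.05, 2 of them were lower and none higher. Heat shock proteins were higher in 14 of 22 (0.04), cytosolic ribosomal proteins in 22 of 38 (0.03) and coagulation factors in 8 of 22 (-0.07). Outside any list, the imprinted gene MEST was higher by 0.55 (0.10 to 1.01), with SP-infused array 3 highest at 6.46, and the zinc finger gene ZNF404 by 0.57 (0.04 to 1.10).

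Of 20 genes singled out for SP-infused sows in the published text, 18 were measured, and they were picked from these arrays, so their values are a description. Their median difference was -0.03, with 8 higher and 10 lower. NR4A3, described above, was the one with an unadjusted p under 0.05. Next came the coagulation factor F8 at 0.25 (-0.16 to 0.67), the granzyme GZMK at -0.26 (-0.70 to 0.18), the thioredoxin reductase TXNRD1 at -0.16 (-0.46 to 0.13) and the semaphorin SEMA6A at 0.19 (-0.21 to 0.60).

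Markers of sperm and of the boar's glands were looked at because RNA could be carried over with the plasma. Fewer were higher than lower in SP-infused UTJ, as among all genes. Of 21 sperm and testis genes 7 were higher and 14 lower (-0.07), and of 9 boar accessory gland genes 3 were higher and 6 lower (-0.08). Among the sperm and testis genes AKAP3, which anchors protein kinase A in the sperm tail, was the one with an unadjusted p under 0.05. AKAP3 was higher by 0.21 (0.01 to 0.42), at 4.83 to 5.25 in control (median 5.02) and 5.10 to 5.44 in SP-infused arrays (median 5.26). All 8 SP-infused arrays were above its control median. The AKAP3 difference was 0.17, with an interval containing 0, without control arrays 6 and 8. Among the boar accessory gland genes 1 was lower at an unadjusted p under 0.05 and none higher. BSP1, a binder of sperm from the seminal vesicles, lay at 2.67 to 3.59 in control and 2.54 to 2.88 in SP-infused arrays. It differed by -0.27, and by -0.18 with an interval containing 0 without control array 1.

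Mated UTJ was measured against the same 8 control arrays, so its values stand beside these without a comparison. Relative to control, mated arrays were at 0.38 for MPI, 0.33 for DPAGT1, 0.43 for TEX261, 0.32 for ND3, -0.10 for C9, -0.27 for RAB44, -1.09 for TAF7, -0.84 for PLAU and 0.75 for CALCRL. Relative to the same controls, the SP-infused differences given above were 0.47, 0.36, 0.48, 0.27, -0.41, -0.37, -1.20, -1.03 and 0.52.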

How the data were processed

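The deposited values were log2 intensities, which the authors made by robust multichip average (RMA: background adjustment, quantile normalization and summarization to 1 value per probe set); per the labels limma was also used, and no version is given in the sources used here. They were taken as they are. Array medians still ranged from 5.80 to 5.99 in control and from 5.80 to 5.90 in SP-infused arrays. In R 4.3.3 with limma 3.58.1 a mean per group was fitted over 24 arrays, with empirical Bayes moderation and Benjamini-Hochberg adjustment over 27558 probe sets. The 16 arrays of both groups decide the difference, and mated arrays add to the variance estimate. Intervals are 95% and unadjusted. Arrays have no read depth, and their number limits the precision. Gene symbols came from the platform annotation, which can be old.

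The compared groups, the 51 gene lists of pathways and cell types and the named genes were chosen with earlier results of these data known. Of 1667 list entries 1142 were matched by symbol. Genes named were the 15 of lowest p and the 10 largest at an unadjusted p under 0.05 in each direction, those not overlapping, the study's own, and members of each list with the lowest p or highest level. Not all are reported. A list is described by counts and its median, since members share arrays. The test was tried on simulated data first. Alternatives were a fit of 16 arrays, a filter at a mean of 5, equal medians, cyclic loess, quantile normalization, trend and robust moderation, array weights, a block for replicate number, gene means over probe sets, and leaving out each array. Leaving out control arrays 1 and 3, or 6 and 8, together was chosen after seeing the data.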

Additional observations from a re-analysis of the deposited data

Results flagged for a closer look

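Single arrays were set apart from the 7 others of their group, by a gap of over 0.526 of the group's range (Dixon's criterion for 8 values), for 15 of 184 gene and group combinations and 4 of 104 list and group combinations. Chance sets apart about 1 in 20 groups.

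Control array 1 accounted for 9 of the 15 gene values. It was low for TEX261 (8.017 against 9.20 to 9.65 on the other controls), DDOST (8.099 against 9.11 to 9.78), CAT (8.57 against 9.37 to 9.86), TXN (8.666 against 9.20 to 9.61), PSMC2 (8.012 against 8.68 to 9.20), STAM (7.11 against 7.41 to 7.59) and PGR (8.58 against 10.13 to 11.48). It was high for ST3GAL6 (8.351 against 6.56 to 7.31) and SLC39A12 (3.633 against 3.04 to 3.30). Its list means stood apart for antioxidant genes (-0.258) and adipocytes (0.636).

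Control array 3 was high for LAMA2 (10.31 against 8.60 to 9.32) and low for contraction receptors as a list (-0.501). Among SP-infused arrays, array 5 was high for CALCRL (8.809) and low for GABRP (3.69), array 7 low for CCL21 (8.584), array 6 high for HBEGF (6.537), array 3 high for MEST (6.46) and array 1 high for the erythroid list (0.246). Pairs of arrays that deviate together, as control arrays 6 and 8 do for CCL20, are not found by this criterion.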

How the results depend on the processing

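No gene passed an adjusted p under 0.05 in limma under any alternative. At an unadjusted p under 0.05 there were 561 genes, 362 among the 8968 with a mean of 5 or more, 557 with trend and robust moderation, 523 with array weights, 462 from the 16 arrays alone, 527, 510 and 517 after equal medians, cyclic loess and quantile normalization, and 376 and 542 without control arrays 1 and 3 or 6 and 8. Leaving out single arrays gave 349 (without control array 1) to 892 (without control array 5). The median difference of all genes was -0.026 and became 0.0081 with equal medians and 0.0060 after cyclic loess, and -0.035 to -0.019 without single arrays. The share of genes with the larger standard deviation in control, 62.9%, ranged from 48.6% (without control array 1) to 65.9%. Of 92 named genes SEMA6A alone changed sign, to -0.027 without control arrays 6 and 8. Of 74 named genes with an unadjusted p under 0.05, 24 were above it without control array 1, 34 without control arrays 1 and 3, and 29 without control arrays 6 and 8. The sign of a list's median was the same under all alternatives for 19 of 52 lists, the study's genes included.

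Control and SP-infused arrays share replicate numbers only as names. Same-numbered arrays correlated by -0.487 to 0.219 after group means were removed, and 1 of 8 correlated best with its own number. With the replicate block 533 genes had an unadjusted p under 0.05 and none passed adjustment. The number of sows, and arrays that vary more than the groups differ, limit what these data can show.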

Other observations

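Markers of further cell types that a dissected UTJ could hold were mostly lower in SP-infused arrays by small amounts. B and plasma cell genes were lower in 7 of 11 cases (median difference -0.09), pericyte genes in 5 of 8 (-0.13), mast cell and eosinophil genes in 7 of 10 (-0.03), erythroid genes in 8 of 11 (-0.06) and nerve and Schwann cell genes in 9 of 11 (-0.09), against 57.7% of all genes and a median of -0.03. Genes of tissues that lie outside the UTJ leaned the same way, with skeletal muscle at 9 of 11 lower (-0.14) and liver at 12 of 15 (-0.07). The erythroid, nerve, skeletal muscle and liver lists lay at mean levels of 4.34, 4.91, 4.90 and 4.09. All genes with a mean below 5 had a median of -0.08. Under other processing the erythroid and liver medians reached 0.03 and 0.02, and those of nerve and skeletal muscle at most -0.02 and -0.06. Peritoneal mesothelium had 4 of 8 lower (-0.02) and ovarian granulosa and luteal cells 2 of 4 (-0.04). Cytokine receptors and their signalling genes were lower in 16 of 29 cases (-0.03). No member of any of these lists passed adjustment (limma).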
